A study of Mus musculus with 12 samples.

Results

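The surfactant protein genes of the mouse lung were followed in all 4 groups of the study. They were chosen by gene name in the 3 deposited tables, and 4 of the 13518 genes present in all tables met this rule. Sftpb and Sftpc encode the lipid-binding proteins, and Sftpa1 and Sftpd encode the collectins. RNA had been sequenced from cells labelled alveolar epithelial cells of C57BL/6 mice aged 8 to 10 weeks. Lung digests were depleted with antibodies to leukocyte (CD45, CD16/32), endothelial (CD31), mesenchymal (CD90, PDGFRα) and red cell (Ter119) surface proteins and then enriched with an antibody to EpCAM. The saline controls were compared with mice that received lipopolysaccharide (LPS, a bacterial cell wall component) at 2 mg/kg for 1 day, or bleomycin (a cytotoxic drug used to model lung fibrosis) at 1.5 U/kg for 2 weeks or for 4 weeks. All agents were given into the trachea, each group had 3 libraries, and no transgene or engineered allele is named in the labels.

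Pulmonary surfactant is made mainly by alveolar type II (AT2) cells, which store it in lamellar bodies and secrete it onto the alveolar surface. Surfactant proteins B and C are small hydrophobic proteins cut from larger precursors, and they promote the spreading of phospholipid at the air-liquid interface. Surfactant proteins A and D are large water-soluble collectins that bind carbohydrates on microbes and modulate macrophages. Production of surfactant proteins is not limited to AT2 cells, since airway club cells also make some of them. NKX2-1, a homeodomain factor of lung epithelium, is known as an activator of surfactant protein promoters.

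Expression values were FPKM, read fragments scaled to transcript length and to the mapped total of the library, so levels could be compared between genes, but the number of reads behind a value is unknown. In 11 libraries 1 to 78 genes were listed at 0, whereas 4-week library 2 listed 6142 genes (45.4%) at 0, among them Epcam and Cdh1, which define epithelium. Its highest correlation with any other library was 0.637, against 0.969 to 0.988 for the other 11, so results at 4 weeks are given with and without it. In those 11 libraries the AT2 markers were abundant, with a summed level over 10 genes of 2896 to 6890 FPKM. Club cell markers reached 5043 to 28258 FPKM, most of it from a single gene, Scgb1a1. The labels do not say whether the libraries came from separate animals, so p-values measure the spread between these libraries, which may be technical.

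In the deposited mm10 coordinates, Sftpb lies on chromosome 6 (72304610 to 72314371, plus strand), and its longest coding transcript has 11 exons. The other members lie on chromosome 14. Sftpa1 (41131782 to 41136452, plus strand, 6 exons) and Sftpd (41172212 to 41185198, minus strand, 8 exons) are separated by 35759 bases, and the tables list 1 gene between them, Mbl1, which encodes another collectin. Sftpc (70520941 to 70524081, minus strand, 6 exons) is far from both. The promoter table used here held 2 of the 4 members, 1 from each class, and their sequences are shown so that NKX2-1-like sites can be compared between a lipid-binding protein gene and a collectin gene. They are the 250 bases before the RefSeq start (GRCm38.p6), chr6:72304360-72304609 and chr14:41131538-41131787, both on the plus strand. Capitals mark CTCAAG, the core of the NKX2-1 motif with flanking bases, and cores with other flanks were not marked.
Sftpb: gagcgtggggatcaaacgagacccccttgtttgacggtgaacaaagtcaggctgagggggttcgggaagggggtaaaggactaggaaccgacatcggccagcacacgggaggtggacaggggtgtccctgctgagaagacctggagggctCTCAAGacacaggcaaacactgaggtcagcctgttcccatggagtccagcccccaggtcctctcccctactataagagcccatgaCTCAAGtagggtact
Sftpa1: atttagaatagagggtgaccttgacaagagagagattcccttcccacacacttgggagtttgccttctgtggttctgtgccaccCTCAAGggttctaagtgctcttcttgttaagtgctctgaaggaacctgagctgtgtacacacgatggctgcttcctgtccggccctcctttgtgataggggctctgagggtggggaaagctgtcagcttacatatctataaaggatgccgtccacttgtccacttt
CTCAAG occurred at 2 positions in the Sftpb window and at 1 in the Sftpa1 window, and 13.3% of the 32817 promoter windows hold it on either strand. The C/EBP motif TTNCNNAA, which does not overlap those matches, occurred at 1 position in the Sftpb window, on the minus strand, was not found in the Sftpa1 window, and is held by 36.8% of windows. Neither window held an exact match to the FOXA motif TGTTTAC (3.16% of windows) or the STAT motif TTCNNNGAA (7.01% of windows), searched on both strands. Variants of the motifs were not searched, and their share over all windows is unknown. Both printed windows do hold strings that differ from the FOXA string by 1 base. Examples are TGTTTGC on the minus strand in the Sftpb window and TGTGTAC in the Sftpa1 window.

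In saline, Sftpc stood far above the other members. Its level was 10854, 14144 and 11008 FPKM in saline libraries 1, 2 and 3, which made it the most or second most abundant gene of a library. Sftpb, whose product is required for lamellar body formation, was at 1434, 1800 and 1569 FPKM. Sftpa1 was at 1103, 1433 and 1279 FPKM and Sftpd at 667, 881 and 800 FPKM. The order Sftpc, Sftpb, Sftpa1, Sftpd held in each saline library, but Sftpb and Sftpa1 lay close, since the lowest Sftpb library (1434) was just above the highest Sftpa1 library (1433). Sftpc made up 75.1% to 77.5% of the FPKM summed over the 4 members, and the 4 members together made up 4.32% to 5.43% of all FPKM in a saline library.

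**Figure D1:**
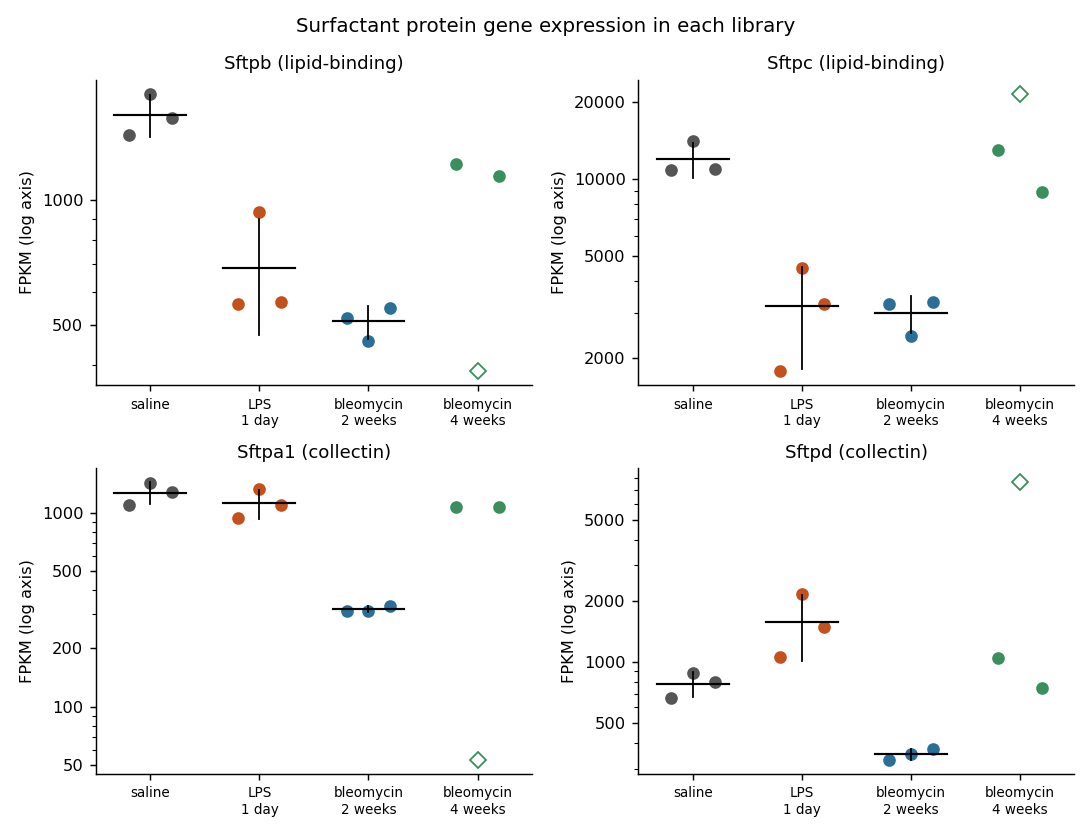
FPKM (log axis) of each surfactant protein gene in each library by group. Points are libraries, horizontal lines are means and vertical lines are 1 SD (n = 3), and 4-week libraries are shown without a mean, with library 2 as an open diamond. After LPS, Sftpb and Sftpc lie below saline, Sftpa1 overlaps it and Sftpd lies above it, and at 2 weeks of bleomycin each member lies below saline.

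One day after LPS the members went in different directions: the lipid-binding protein genes fell, Sftpd rose, and Sftpa1 did not pass the test. Sftpb was at 561, 933 and 567 FPKM in LPS libraries 1, 2 and 3, a mean of 687 ± 213 (SD, n = 3) against 1601 ± 185 in saline. Sftpc was at 1773, 4507 and 3262 FPKM, and its mean of 3181 ± 1369 was 0.265 of the saline mean. For both genes every LPS library was below every saline library, as for 35.8% of all genes tested, and LPS library 2 was the highest of its group. Sftpa1 was at 945, 1331 and 1096 FPKM after LPS, a mean of 1124 ± 194 against 1272 ± 165 in saline, and the groups overlapped. Sftpd was at 1064, 2173 and 1494 FPKM, and its mean of 1577 ± 559 was 2.01 times the saline mean of 783 ± 108. All 3 LPS libraries were above all 3 saline libraries for Sftpd, as for 19.9% of genes tested, with library 2 again the highest.

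With limma on log2(FPKM + 1) and Benjamini-Hochberg adjustment over 12456 genes, Sftpb fell by 1.26 ± 0.283 (SE, adjusted p = 0.0088) and Sftpc fell by 2.01 ± 0.438 (adjusted p = 0.00771). By the same test Sftpd rose by 0.96 ± 0.311 (adjusted p = 0.0372). The difference of Sftpa1 was -0.18 ± 0.259, with a 95% interval of -0.77 to 0.40 (limma adjusted p = 0.589), and it turned to 0.09 with median-ratio scaling and passed at -0.57 with quantile normalization (adjusted p = 0.0417, range over its alternatives 0.0417 to 0.945). Of all genes tested 40.2% passed in this comparison, 25.9% downward and 14.2% upward, so 3 of 4 members called is to be read against a high background, and the median gene itself moved by -0.22. Sftpc was the 91st lowest of the 12456 log2 changes, Sftpb the 607th lowest, and Sftpd the 959th from the top. Among the 692 genes of at least 100 FPKM the median change was 0.53 and 59.1% passed; 70.8% of them had a lower change than Sftpd, against 92.3% of all genes, and 7.23% and 2.02% had a lower change than Sftpb and Sftpc. In bulk RNA, fewer cells of a type and less RNA per cell cannot be told apart.

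The Sftpd call after LPS was the least stable. It was lost in 5 of the 6 fits that left out 1 library (LPS library 2 or 3, or any saline library; log2 0.70 to 1.21, adjusted p 0.00439 to 0.132), and the q-value in the authors' deposited table was 0.109. Without saline library 2 Sftpb no longer passed (limma adjusted p = 0.0514, range 0.0032 to 0.0514 over the 6 libraries), and the same was seen with median-ratio scaling (adjusted p = 0.0556, range over its alternatives 0.000795 to 0.114).

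Cell type markers moved in the same comparison, in which 14.2% of all genes rose and 25.9% fell. AT2 markers fell in 6 of 10 and rose in 1, Chil1. Markers of alveolar type I cells fell in 3 of 8 and rose in 1, Pdpn. Endothelial and fibroblast markers each fell in 2 of 6, and none rose. Summed macrophage markers were 481 to 499 FPKM after LPS against 92.7 to 166 in saline, and 6 of 9 rose, among them Marco. Summed neutrophil markers were 3717 to 9267 FPKM against 298 to 735, and 8 of 8 rose; Ly6g was at 0 in at least 1 saline library. Of 7 lymphocyte markers 3 rose (Cd3g, Nkg7, Cd8a) and 3 fell (Cd79a, Ms4a1, Cd79b). Markers of club cells, which also make some surfactant proteins, fell in 5 of 7 and rose in 1, Hp. Their sum (6792 to 14058 FPKM against 14098 to 19246) was mostly Scgb1a1, which did not pass (8330 ± 3302 FPKM against 12305 ± 2220). Ciliated cell markers fell in 5 of 6 (212 to 294 FPKM against 377 to 425). Ptprc, which encodes the CD45 used for depletion, was at 9.77 ± 2.67 FPKM against 6.32 ± 1.25 (limma adjusted p = 0.0869), and Epcam fell to 23.2 ± 2.65 FPKM against 41.3 ± 4.21 in saline (limma adjusted p = 0.00584). The part of these shifts in the members' changes was not tested.

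At 2 weeks of bleomycin all 4 members fell. Sftpb was at 521, 459 and 550 FPKM in libraries 1, 2 and 3, a mean of 510 ± 46.7 that was 0.319 of the saline mean. Sftpc was at 3257, 2427 and 3294 FPKM, and its mean of 2993 ± 490 was 0.249 of the saline mean. Sftpa1 was at 312, 312 and 332 FPKM, a mean of 319 ± 11.2 and 0.251 of the saline mean. For each of these genes all 3 libraries were below the lowest saline library, as for 18.8% of genes tested, and the libraries of the group lay close together. Sftpd was at 331, 353 and 376 FPKM, and its mean of 354 ± 22.6 was 0.452 of the saline mean, again with no overlap between the groups.

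By limma over 12725 genes, Sftpc fell by 2.01 ± 0.179 (SE, adjusted p = 0.000412) and Sftpa1 fell by 1.98 ± 0.114 (adjusted p = 0.000106) on the log2(FPKM + 1) scale. Sftpb fell by 1.65 ± 0.122 (limma adjusted p = 0.000225) and Sftpd fell by 1.14 ± 0.121 (limma adjusted p = 0.000767). Of all genes 29.8% passed, 11.8% downward and 18% upward; the median gene moved by 0.05. Sftpc was the 17th and Sftpa1 the 20th lowest of all log2 changes, Sftpb was the 49th lowest and Sftpd the 157th lowest. Among the 531 genes of at least 100 FPKM 56.5% passed and the median change was -0.22. Of these, from 0.753% (Sftpc) to 6.4% (Sftpd) had a lower change than a member. The Sftpc call was lost under quantile normalization (log2 -0.38, adjusted p = 0.264, range over its alternatives 0.000189 to 0.264), a method that by construction gives genes at the very top of each library nearly the same value, and Sftpc was among the top 3 genes in each saline and 2-week library. With a single fit of all 12 libraries, whose spread includes 4-week library 2, Sftpb, Sftpa1 and Sftpd did not pass at 2 weeks and Sftpb and Sftpd did not pass after LPS.

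Cell type markers moved at 2 weeks too, when 18% of all genes rose and 11.8% fell. AT2 markers fell in 9 of 10 (summed 2896 to 3668 FPKM against 5675 to 6890 in saline) and club cell markers in 5 of 7 (5043 to 8571 FPKM against 14098 to 19246). Epcam and Cdh1 both fell, to log2 differences of -0.57 and -0.39 (limma adjusted p = 0.0166 and 0.027). Macrophage markers rose in 5 of 9 (269 to 378 FPKM against 92.7 to 166), and of 6 fibroblast markers the collagen genes Col1a1, Col3a1 and Col1a2 rose and Inmt fell. The part of these shifts in the members' falls was not tested.

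**Figure D2:**
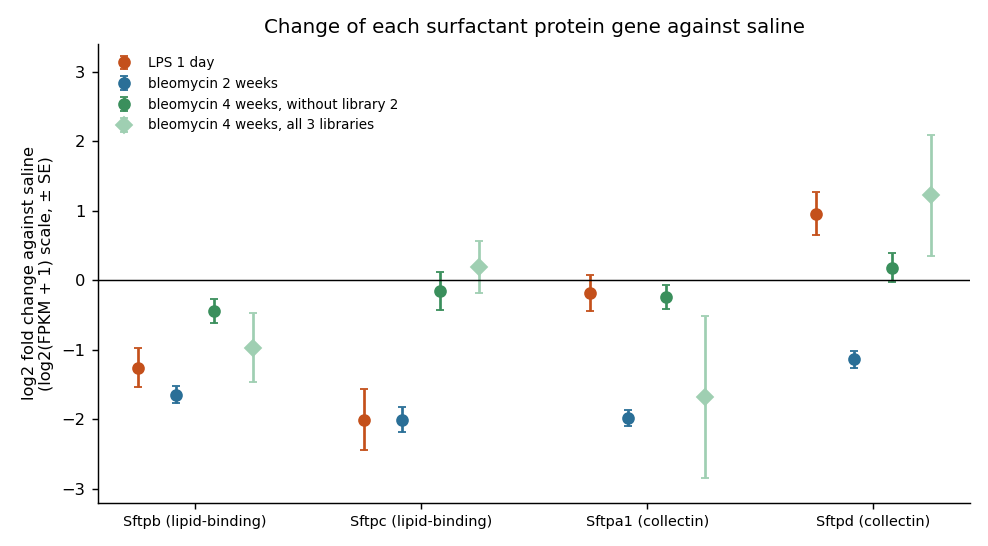
Difference of each surfactant protein gene from saline on the log2(FPKM + 1) scale, with error bars of 1 standard error, after LPS, at 2 weeks and at 4 weeks of bleomycin with and without library 2. The 2-week values run from -2.01 to -1.14, the LPS values from -2.01 for Sftpc to 0.96 for Sftpd, and the 4-week values without library 2 from -0.44 to 0.18.

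Because LPS and 2-week bleomycin were both set against the same saline libraries, they were also compared directly. Both collectin genes were higher after LPS than at 2 weeks of bleomycin. Sftpa1 was higher by 1.80 ± 0.233 (SE, log2 scale, limma adjusted p = 0.000481) and Sftpd by 2.10 ± 0.294 (limma adjusted p = 0.000756), and the LPS libraries were all above the bleomycin libraries for either gene, as for 16.1% of genes tested. The lipid-binding genes did not pass: Sftpc differed by 0.00 ± 0.405 (95% interval -0.90 to 0.91, limma adjusted p = 0.999) and Sftpb by 0.39 ± 0.268 (95% interval -0.21 to 0.99, limma adjusted p = 0.268). The Sftpc difference changed sign with equal library totals (-0.35) and passed with quantile normalization at -0.91 (adjusted p = 0.0433, range over its alternatives 0.0433 to 1), and that of Sftpb changed sign with quantile normalization (-0.29). For Sftpb too, every LPS library was above every 2-week library (lowest 561 against highest 550 FPKM). Of 12488 genes 34.2% passed, and 10.4% were higher after LPS. Among the 674 genes of at least 100 FPKM the median change was 0.65 and 61.4% passed. Of these, 89.2% had a lower change than Sftpa1, 91.5% than Sftpd, 39.8% than Sftpb and 26.4% than Sftpc. With a single fit of all 12 libraries neither collectin passed (adjusted p = 0.351 for Sftpa1 and 0.136 for Sftpd; ranges over their alternatives 2.48e-05 to 0.351 and 6.55e-05 to 0.136).

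At 4 weeks of bleomycin, library 1 and the unnumbered library, whose column number matched no sample title, overlapped saline for Sftpc and Sftpd, whereas Sftpb and Sftpa1 were under every saline library in both, as were 29.8% of genes tested. Sftpb was at 1221 FPKM in library 1 and 1138 in the unnumbered library, Sftpc at 12988 and 8895, Sftpa1 at 1070 and 1067, and Sftpd at 1045 and 746. Library 2 departed from them in a gene-specific way, with Sftpb at 387, Sftpc at 21625, Sftpa1 at 53.3 and Sftpd at 7656 FPKM. In that library the collectins were thus far apart, with Sftpd 144 times Sftpa1, against 0.605 to 1.63 times in the other 11 libraries.

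No member passed the test against saline at 4 weeks, with or without library 2. With all libraries the limma differences were -0.97 ± 0.498 for Sftpb, 0.19 ± 0.372 for Sftpc, -1.68 ± 1.17 for Sftpa1 and 1.22 ± 0.874 for Sftpd (SE, adjusted p 0.541 to 0.732). In that comparison 0 of 12325 genes passed in limma, 302 had an unadjusted p under 0.05, and 1 gene passed by the q-value of the authors' deposited table. Without library 2 they were -0.44 ± 0.172, -0.15 ± 0.274, -0.24 ± 0.173 and 0.18 ± 0.209 in the same order (limma adjusted p 0.218 to 0.772), with 1.44% of 12284 genes called, and the sign of Sftpc had turned. Against 2 weeks, no gene of 12472 passed with all libraries (690 had an unadjusted p under 0.05).

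Without library 2, all 4 members were higher at 4 than at 2 weeks of bleomycin. Sftpc was higher by 1.86 ± 0.28 (SE, log2 scale, limma adjusted p = 0.0111) and Sftpa1 by 1.74 ± 0.155 (limma adjusted p = 0.00335). Sftpd was higher by 1.32 ± 0.195 (limma adjusted p = 0.0108) and Sftpb by 1.21 ± 0.174 (limma adjusted p = 0.00971). Of 12440 genes 9.28% passed and 1.95% were higher at 4 weeks. Sftpc ranked 7th and Sftpa1 9th from the top of all log2 changes, Sftpd 34th and Sftpb 45th. Among the 530 genes of at least 100 FPKM 18.5% passed and the median change was 0.30, against -0.16 for all genes. These calls rest on leaving out library 2: with it the differences were 0.68 for Sftpb, 2.19 for Sftpc, 0.31 for Sftpa1 and 2.36 for Sftpd, with limma adjusted p of 0.478 to 0.852. In the fit without library 2, AT2 markers rose in 6 of 10 and club cell markers in 5 of 7, and macrophage markers fell in 6 of 9. Of 6 fibroblast markers Col1a1 and Col1a2 fell and Inmt rose. The part of these shifts in the members' rise was not tested.

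The balance of the classes within a library was described by the log2 ratio of the geometric mean of Sftpb and Sftpc to that of Sftpa1 and Sftpd, which uses no scaling between libraries. It was 2.20, 2.17 and 2.04 in saline libraries 1, 2 and 3, and -0.01, 0.27 and 0.09 after LPS. The LPS ratio thus lay near 0 and was lower than saline by 2.02. From FPKM summed within each class the log2 ratio was 0.22, 0.64 and 0.56 in LPS libraries 1, 2 and 3. By that measure the lipid-binding class stayed above the collectin class. Sftpb alone was below both collectins in each LPS library, at 0.517 to 0.702 times Sftpa1 and 0.380 to 0.527 times Sftpd. At 2 weeks of bleomycin the ratio of geometric means was 2.02, 1.67 and 1.93, below every saline library but by only 0.26 on average. At 4 weeks it was 1.91 in library 1, 1.83 in the unnumbered library and 2.18 in library 2, so this mean hid the departures of single genes in library 2.

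**Figure D3:**
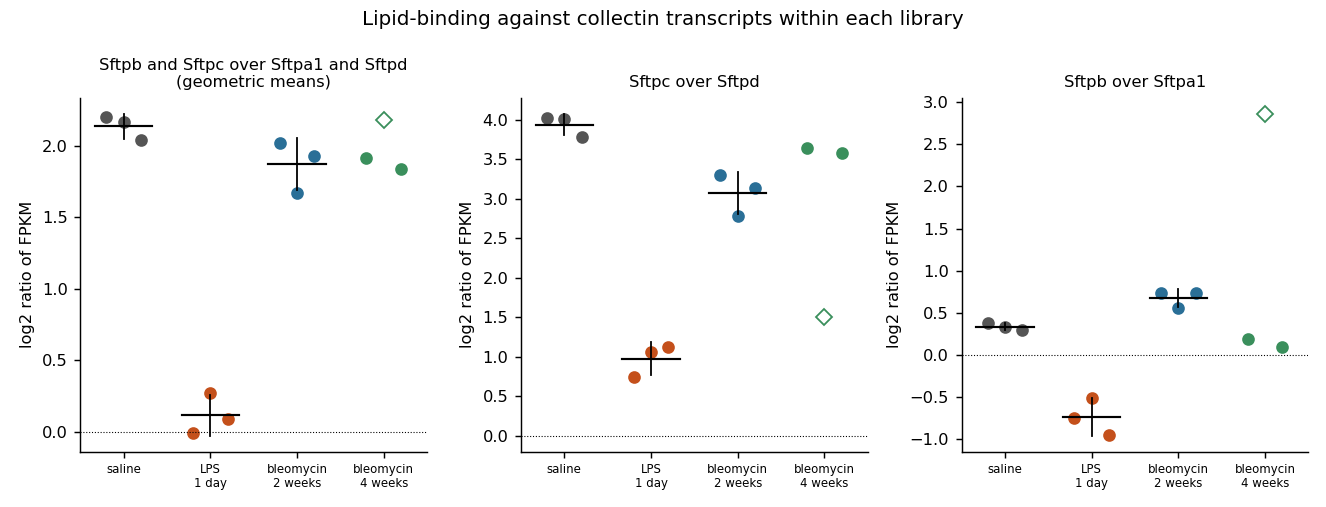
Log2 ratios of FPKM within each library: both lipid-binding genes over both collectin genes, Sftpc over Sftpd, and Sftpb over Sftpa1. Points are libraries, lines are the mean and 1 SD (n = 3), and the open diamond is 4-week library 2. The LPS libraries lie below all others in the first ratio and in Sftpb over Sftpa1; in Sftpc over Sftpd 4-week library 2 is the nearest to them.

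Single pairs showed where the balance moved. Sftpc exceeded Sftpd 16.3, 16.1 and 13.8 times in saline libraries and 1.67, 2.07 and 2.18 times after LPS. It exceeded Sftpd 9.83, 6.88 and 8.75 times at 2 weeks and 12.4 and 11.9 times in 4-week library 1 and the unnumbered library. Sftpb was at 1.23 to 1.30 times Sftpa1 in saline, 0.517 to 0.702 times after LPS and 1.47 to 1.67 times at 2 weeks. The pairs did not move alike at 2 weeks: Sftpc lost ground to Sftpd, whereas Sftpb gained on Sftpa1. Within the classes, the ratio of Sftpd to Sftpa1 was 0.605 to 0.625 in saline, 1.13 to 1.63 after LPS and 1.06 to 1.13 at 2 weeks. Sftpc was at 7.02 to 7.86 times Sftpb in saline, 3.16 to 5.75 times after LPS and 5.29 to 6.25 times at 2 weeks. Sftpd thus exceeded Sftpa1 in each LPS and 2-week library and in no saline library.

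To see whether the members moved with other AT2 transcripts, each was divided by the summed FPKM of 10 AT2 markers that are not members. After LPS, Sftpb was at 0.106 to 0.155 of that sum against 0.242 to 0.261 in saline, and Sftpc at 0.389 to 0.748 against 1.70 to 2.05. Sftpa1 was at 0.206 to 0.221 against 0.194 to 0.208, with overlap, and Sftpd at 0.233 to 0.361 against 0.118 to 0.128. The sum is dominated by Lyz2, a lysozyme gene also expressed by macrophages, at 4058 ± 376 FPKM in saline. Chil1 was the 1 marker of the 10 that rose after LPS, from 348 ± 45.4 to 760.3 ± 195 FPKM (limma adjusted p = 0.00851). Leaving out either gene was chosen after seeing the data. Of the other 8 markers Cxcl15 was the highest in saline, at 871 ± 124 FPKM. Without Lyz2 the lipid-binding genes stayed below and Sftpd above saline, and Sftpa1 was then above saline as well (0.573 to 0.742 against 0.541 to 0.568). Without Lyz2 and Chil1 the other 8 markers summed to 827 to 1004 FPKM after LPS against 1733 to 2130 in saline. Relative to these 8, Sftpb overlapped saline (0.559 to 1.01 against 0.796 to 0.845), Sftpc was lower (1.77 to 4.90 against 5.59 to 6.64), and Sftpa1 (0.941 to 1.45 against 0.636 to 0.673) and Sftpd (1.06 to 2.36 against 0.385 to 0.414) were higher. The position of Sftpb against other AT2 transcripts after LPS thus depended on the markers taken, whereas that of Sftpc and Sftpd did not over these 3 sums. At 2 weeks the outcome depended on Lyz2. With it, Sftpb was at 0.142 to 0.190, Sftpc at 0.838 to 1.14 and Sftpa1 at 0.0852 to 0.115 of the sum, all below saline, while Sftpd at 0.0903 to 0.130 overlapped it. Without it, the 2-week range overlapped saline for Sftpb (0.546 to 0.805 against 0.677 to 0.713) and Sftpc (2.89 to 5.04 against 4.75 to 5.60). Sftpa1 stayed lower (0.372 to 0.483 against 0.541 to 0.568), and Sftpd was higher (0.420 to 0.512 against 0.328 to 0.349). With the 8 markers the same held at 2 weeks: Sftpb and Sftpc overlapped saline, Sftpa1 was lower and Sftpd was higher.

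**Figure D4:**
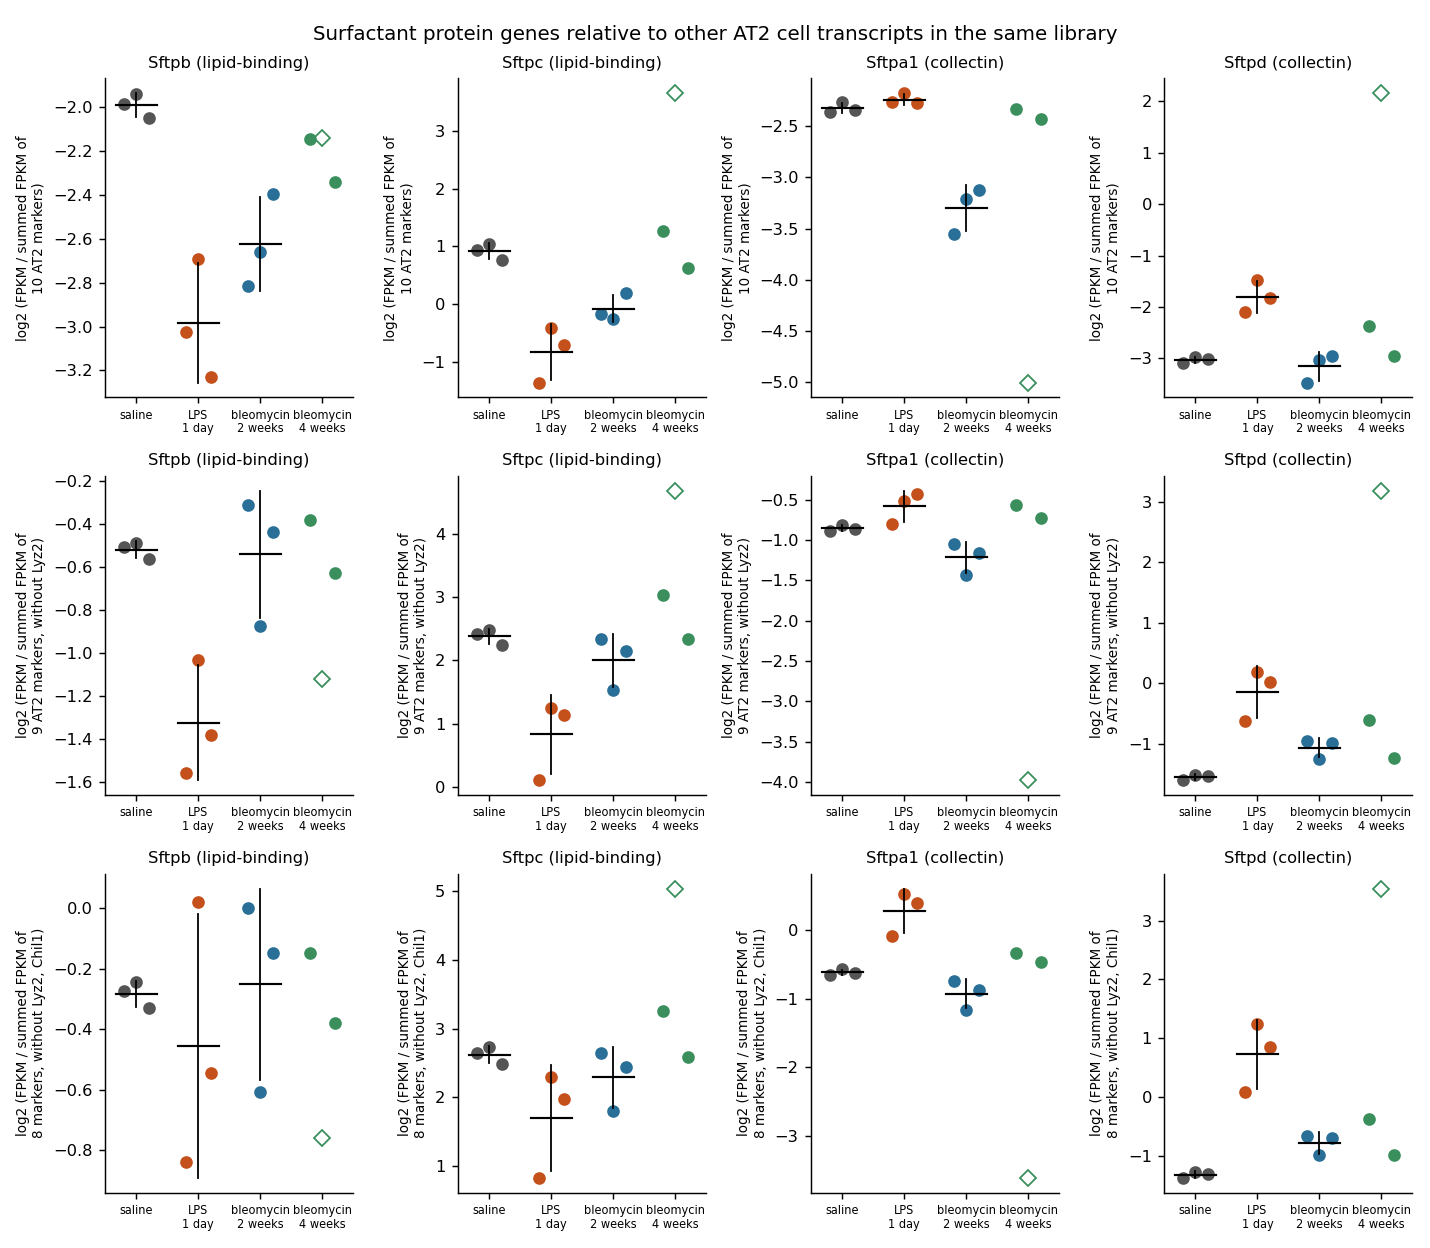
Log2 of each member's FPKM over the summed FPKM of 10 AT2 markers (upper row), of the 9 markers other than Lyz2 (middle row) or of the 8 other than Lyz2 and Chil1 (lower row) in the same library. Points are libraries, lines are the mean and 1 SD (n = 3), and the open diamond is 4-week library 2. After LPS, Sftpc lies below and Sftpd above saline in each row, and Sftpb lies below it in the upper 2 rows only; at 2 weeks Sftpa1 is the only member below saline in each row.

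Other genes of surfactant production were read from lists that were chosen with results of these data known. Of the 14 tested genes for maturation of the proteins and for the lamellar body, 5 fell and 1 rose after LPS (median log2 -0.61, all genes -0.22), a share near the 40.2% of all genes that passed. Slc34a2, a phosphate transporter of AT2 cells, fell to 156 ± 43.2 FPKM against 356 ± 44.2 in saline (limma adjusted p = 0.00448). Abca3, which loads phospholipid into lamellar bodies, fell to 25.4 ± 6.24 FPKM against 64.9 ± 5.9 (limma adjusted p = 0.0016), and Lamp3, a lamellar body membrane protein, fell by 0.79 on the log2 scale (limma adjusted p = 0.0248). The exception was Ctsh, a protease that helps cut the precursors of surfactant proteins B and C, which rose to 103 ± 15.4 FPKM against 60.2 ± 6.77 (limma adjusted p = 0.0114). Napsa, another such protease, differed by -0.44 (limma adjusted p = 0.116), and Hspa5, an endoplasmic reticulum chaperone, by 0.35 (limma adjusted p = 0.501).

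At 2 weeks 6 of 15 genes of this list fell and 1, Emc3, rose (median log2 0.03, all genes 0.05), against 11.8% and 18% of all genes. Slc34a2 fell by 1.90 (limma adjusted p = 0.000225), Lamp3 by 1.79 (limma adjusted p = 0.000601), Abca3 by 1.40 (limma adjusted p = 0.000135) and Napsa by 1.26 (limma adjusted p = 0.000485) on the log2 scale. Hspa5 differed by -0.30 (limma adjusted p = 0.546) and Ctsh by 0.03 (limma adjusted p = 0.839). From 2 to 4 weeks, without library 2, Napsa, Hspa5, Slc34a2 and Lamp3 rose among 14 tested, and none fell, while 1.95% of all genes rose.

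Genes of surfactant phospholipid synthesis mostly fell after LPS: 10 of 12 fell and 1 rose (median log2 -0.79), against 25.9% and 14.2% of all genes. Scd1, which desaturates fatty acids, fell to 93.9 ± 30.1 FPKM against 459 ± 102 (limma adjusted p = 0.00044), and Fasn, the fatty acid synthase, fell by 1.33 on the log2 scale (limma adjusted p = 0.00185). Lpcat1, which makes the saturated phosphatidylcholine of surfactant, fell by 1.07 (limma adjusted p = 0.0323), and Acly, which supplies acetyl-CoA for lipid synthesis, fell by 0.90 (limma adjusted p = 0.0131). Fabp5, a fatty acid binding protein, rose by 0.66 (limma adjusted p = 0.03). At 2 weeks 7 of 12 fell and none rose (median log2 -0.60), against 11.8% and 18% of all genes. Among those that fell were Fasn by 1.17, Scd1 by 0.97 and Acly by 0.56, whereas Lpcat1 at -1.34 did not pass (limma adjusted p = 0.0599).

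Among transcription factors known to act on surfactant genes, 12 of 13 fell after LPS and none rose (median log2 -1.12), against 25.9% and 14.2% of all genes. The rise of Sftpd, the least stable call, stood beside these falls. Nkx2-1 fell to 18.8 ± 5.53 FPKM against 52.8 ± 9.85 (limma adjusted p = 0.00186), Etv5, an ETS factor that maintains AT2 cells, to 13.8 ± 2.96 FPKM against 54.9 ± 5.88 (limma adjusted p = 0.000189), and Cebpa by 0.90 on the log2 scale (limma adjusted p = 0.00549). Cebpd, another C/EBP factor, fell by 0.59 (limma adjusted p = 0.0301). At 2 weeks 7 of 13 fell and 1, Stat3, rose (median log2 -0.53), against 11.8% and 18% of all genes. Nkx2-1 then fell by 1.12 (limma adjusted p = 0.00305), Etv5 by 1.71 (limma adjusted p = 0.000257) and Cebpa by 0.42 (limma adjusted p = 0.0167). Etv5 was the only one of the 13 that passed against saline at 4 weeks without library 2, at -1.11 (limma adjusted p = 0.0256).

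Among collectin relatives and genes of surfactant recognition and clearance, 9 of 16 tested rose after LPS and 1 fell (median log2 0.60), against 14.2% and 25.9% of all genes. Cd14, a lipopolysaccharide receptor that binds surfactant protein A, rose to 990.0 ± 218 FPKM against 96.6 ± 22.4 (limma adjusted p = 4.95e-05), and Calr, which encodes calreticulin, a collectin receptor component, rose by 0.70 on the log2 scale (limma adjusted p = 0.018). Colec12, a membrane collectin, was the 1 that fell, by 1.77 (limma adjusted p = 0.00114). Several of these genes are also expressed by macrophages, whose markers rose in the same libraries, and the part of those cells was not tested. At 2 weeks 8 of 17 rose and 3 fell (median log2 0.28), against 18% and 11.8% of all genes. Those that fell were Prdx6, a peroxiredoxin that also has phospholipase activity on surfactant lipid, Adgrf5, a receptor that limits the surfactant pool, and Mbl1. Prdx6 fell by 0.70 (limma adjusted p = 0.0151), Adgrf5 by 0.78 (limma adjusted p = 0.0177) and Mbl1 by 0.89 (limma adjusted p = 0.00142), the last from a level of only 1.50 ± 0.13 FPKM in saline.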

How the data were processed

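RNA-seq values were taken from 3 tables, each with 1 treatment group and the 3 saline libraries. The authors deposited FPKM for each library, per the file headers. HISAT2 and StringTie with build mm10 are named in the submitters' processing notes without versions; strand setting, read totals and annotation release: not given in the sources used here. Also deposited by the authors were group means and fold changes on the log2(FPKM + 1) scale, a linear fold ratio, p-values and q-values; by the values, the deposited log2 fold change is the difference of the group means. The higher group mean of each deposited gene was at least 0.5 FPKM. Values were not whole multiples of a read (28.7% to 41.2% within 0.1 of a step). Saline values were identical across tables.

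Python 3.11.15 with pandas 2.3.3 and limma 3.58.1 in R 4.3.3 were used (two-sided, pseudocount 1, at least 1 FPKM in at least 3 libraries of the fit, mean-variance trend, Benjamini-Hochberg threshold 0.05 over all genes tested), on the libraries of the groups compared; the script was checked on simulated data. Saline is shared by the 3 treatment comparisons. Members and lists were chosen with earlier results of these data known. Named genes were the members, 4 genes per pathway list with the highest saline mean, a fixed set of marker genes, list members that passed against the direction of their list, and the genes most like each member. Alternatives were another filter, 3 scalings, joint fits, a replicate block and leaving out each library. Exon counts came from GENCODE M21 and promoters from RefSeq (GRCm38.p6).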

Additional observations from a re-analysis of the deposited data

Results flagged for a closer look

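The direct comparison of LPS for 1 day with bleomycin for 2 weeks gave differences between the treatments for both collectin genes and for neither lipid-binding gene. Sftpa1 was higher after LPS by 1.80 ± 0.233 (SE, log2 scale, limma adjusted p = 0.000481) and Sftpd by 2.095 ± 0.294 (limma adjusted p = 0.000756). All 3 LPS libraries were above all 3 bleomycin libraries for both genes, but also for Sftpb and for 16.1% of all genes tested. Of all genes 34.2% passed, and 61.4% of the 674 genes of at least 100 FPKM did, with a median change of 0.65. With a single fit of all 12 libraries neither collectin passed (limma adjusted p = 0.351 for Sftpa1 and 0.136 for Sftpd).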

How the results depend on the processing

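Over the 6 fits that left out 1 library, no member changed its call at 2 weeks of bleomycin, and Sftpc kept its call after LPS (log2 -2.31 to -1.64). Sftpb after LPS ranged from -1.497 to -1.13 and Sftpd from 0.70 to 1.21. Against saline at 4 weeks Sftpc ranged from -0.15 to 0.49. Between LPS and 2 weeks Sftpc ranged from -0.30 to 0.37. Between 4 and 2 weeks Sftpa1 ranged from -0.41 to 1.74, Sftpb from 0.38 to 1.21, Sftpc from 1.86 to 2.50 and Sftpd from 1.32 to 3.00. The count of genes called ranged from 2561 to 6693 (LPS), 2153 to 3282 (2 weeks), 0 to 177 (4 weeks), 1919 to 6473 (LPS against 2 weeks) and 0 to 1155 (4 against 2 weeks); the 177 and the 1155 were without 4-week library 2. With a minimum of 5 FPKM 3272 genes (LPS) and 2729 (LPS against 2 weeks) were called.

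A single fit of 12 libraries called 669, 134, 1, 484 and 67 genes in the same 5 comparisons, and lost Sftpb (-1.26, adjusted p = 0.114) and Sftpd (0.96, 0.495) after LPS, Sftpa1 (-1.98, 0.695), Sftpb (-1.65, 0.117) and Sftpd (-1.14, 1) at 2 weeks, and Sftpa1 (1.80) and Sftpd (2.10) between LPS and 2 weeks, while Sftpc passed between 4 and 2 weeks (2.19, adjusted p = 0.0306); the cause was not tested. The fit of 11 libraries without 4-week library 2 called 1773 (2 weeks), 195 (4 weeks) and 639 (4 against 2 weeks) genes, turned Sftpc at 4 weeks to -0.15, and called Sftpb (1.21), Sftpc (1.86), Sftpa1 (1.74) and Sftpd (1.32) between 4 and 2 weeks. By the authors' deposited q-values 2857 genes passed after LPS and 1 at 4 weeks, and Sftpd (0.96) did not.

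Median-ratio scaling gave Sftpa1 0.092 and Sftpb -0.98 (adjusted p = 0.0556) after LPS. Quantile normalization gave Sftpa1 -0.57 and Sftpd 0.53 (adjusted p = 0.134) after LPS, Sftpc -0.38 at 2 weeks and -0.17 at 4 weeks, and Sftpb -0.29 and Sftpc -0.91 between LPS and 2 weeks, where equal totals gave Sftpc -0.35. After LPS 1770 genes rose and 3232 fell, against 1218 and 3717 with equal totals, 2539 and 2052 with median-ratio scaling and 2112 and 2604 with quantile normalization. At 2 weeks 2290 rose and 1496 fell, against 3657 and 917, 2000 and 2002, and 1946 and 2013. Summing FPKM within each class moved the log2 class ratio difference from -2.02 to -2.25 after LPS and to -0.48 at 4 weeks. Without Lyz2, an alternative chosen after seeing the data, the difference of Sftpd relative to AT2 markers at 2 weeks turned from -0.12 to 0.49, and to 0.54 without Lyz2 and Chil1, where Sftpb turned to 0.030 from -0.63.

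The replicate numbers did not pair libraries (correlation of same-numbered libraries' deviations -0.16 to 0.116, best with its own number in 2 of 9 pairs). With a replicate block the called genes were 4885 (LPS), 3310 (2 weeks), 3642 (LPS against 2 weeks) and, for numbers 1 and 2 only, 0 (4 weeks) and 1 between 4 and 2 weeks, where Sftpa1 turned to -0.38. Depth is unknown, so counting error could not be given.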

Other observations

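The genes whose levels most resembled each member over the 11 libraries without 4-week library 2 were ranked among 4814 genes with a mean of at least 10 FPKM, by Pearson r of log2(FPKM + 1). These libraries share their 4 groups, so r describes the group pattern. Gsta3, a glutathione transferase gene, was nearest to Sftpa1 (r = 0.987), followed by Selenbp1, Chia1 and Rabac1 (0.950 to 0.977), and Axl was the most opposite (-0.969). Npw was nearest to Sftpb (0.971), followed by Cldn3, Sec14l4 and Pla2g1b (0.956 to 0.963), with Enc1 most opposite (-0.967). Cbr2 and Gstm1 were nearest to Sftpc (0.974 and 0.973), followed by Cmtm8 and Elovl1, with Nars most opposite (-0.981). Isg20 was nearest to Sftpd (0.980), followed by Vamp8, Tmem238 and Ddt (0.959 to 0.969), with Pxdn most opposite (-0.980). With 4-week library 2 included several of these no longer held, as for Ddt with Sftpd (-0.58), Axl with Sftpa1 (0.20) and Enc1 with Sftpb (-0.068).

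Between members, r was 0.945 for Sftpb with Sftpc and 0.838 for Sftpa1 with Sftpd, against 0.756 for Sftpa1 with Sftpb, 0.598 for Sftpa1 with Sftpc, 0.345 for Sftpb with Sftpd and 0.185 for Sftpc with Sftpd. With 4-week library 2 included these were 0.532, -0.28, 0.756, -0.077, -0.13 and 0.474 in the same order, so the likeness of the collectins rests on leaving that library out. Isg20, an interferon-inducible exonuclease gene, was at a median of 18.1 FPKM in saline, 36.8 after LPS and 9.25 at 2 weeks. Cbr2, a carbonyl reductase gene of club cells, was at 1393 to 1758 FPKM in saline, 369 to 504 after LPS and 408 to 630 at 2 weeks.

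Within 100 kb of Sftpc, Lgi3 (chromosome 14, 70530821 to 70538323, mm10) was singled out after its values were seen. Its mean was 81.5 FPKM in saline, 17.9 after LPS and 23.2 at 2 weeks, so that it fell by 2.16 (limma adjusted p = 0.000229) and by 1.77 (limma adjusted p = 0.000215) on the log2 scale. Bmp1, on the other side of Sftpc, rose by 1.04 at 2 weeks (limma adjusted p = 0.000323). Any cause of these neighbouring changes was not tested.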
